A study of Mus musculus with 8 samples.

Results

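Platelets are anucleate cells shed by megakaryocytes, and they carry their protein cargo in alpha granules that empty when the cell is activated. The RNA they hold is what remains of the megakaryocyte's transcripts, and chemokines, adhesive proteins and the platelet-restricted beta-tubulin are among its most abundant species in blood. The 10 genes described here encode granule content (Pf4, Ppbp, Thbs1, Sparc, Clu, Mmrn1 and Srgn), Nrgn, the granule membrane receptor Treml1, and Tubb1, the beta-tubulin of the platelet's marginal microtubule band. They were listed by name, as known platelet granule cargo with Tubb1 and Treml1, and not by a measured value, though with earlier results of these data known. The summed table holds 35944 genes, and all 10 members were in it and passed the filter on low counts.

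RNA came from the buffy coat, the layer of white cells and platelets of centrifuged blood, of mice that received PM2.5 (fine airborne particulate matter) or PBS (phosphate-buffered saline) over 24 weeks. The labels give no strain, sex, age or exposure route. Of the 8 libraries, those numbered 9, 17, 18 and 21 are PM2.5 and those numbered 4, 10, 12 and 16 are PBS. Whether each came from its own animal is not said, and the p-values below cover only the variation among these 8, which may be technical. Each library had 72081019 to 89032794 expected counts, of which the 4 major haemoglobin genes took 82.31% to 88.62%. Transcripts of platelet receptors were counted in every library: summed over 28 receptor genes, 764 to 1254 counts per 1e6 (CPM) with PM2.5 and 614 to 1125 with PBS. Of the 28, 26 passed the filter on low counts. CPM here uses the library size after scaling by the trimmed mean of M values (TMM), with scaling factors between 0.638 and 1.518.

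Most of the 10 genes stood slightly higher on average with PM2.5 on the TMM scale, by 1.17-fold for Thbs1 to 1.37-fold for Nrgn, and none passed the test. Sparc, at 0.536-fold, was the exception and was barely counted. A log2 fold change above 0 was fitted for 9 of the 10, against 54.4% of all 10361 genes tested, and the median was 0.33 over the 10 and 0.05 over all genes. No member passed edgeR's quasi-likelihood test at an adjusted p of 0.05, where 1.6% of all genes did (0.463% higher and 1.14% lower). None had an unadjusted p under 0.05, where 18% of all genes did (8.79% higher). In no member did the groups separate without overlap, which 9.66% of all genes did (3.02% higher and 6.64% lower). Single libraries moved this. Without PBS replicate 4, 6 of the 10 had an unadjusted p under 0.05, beside 1861 of 10478 genes, and the median was 0.49 (all genes 0.004). Without PM2.5 replicate 17 it was 5 of the 10, beside 1640 of 10683 genes, and 0.46 (all genes 0.033). Without PM2.5 replicate 9 it was 0 of the 10, beside 2060 of 10604 genes, and 0.19 (all genes 0.008). No member passed the adjusted threshold in any of these 3 fits. The direction depended on the scaling: with library totals all 10 log2 fold changes were negative (median -0.23, with the median of all genes at -0.52), and with haemoglobin removed before scaling to totals 6 were positive and 4 negative (median 0.02, all genes -0.30). Relative to the median of all genes the members stood 0.28 higher with TMM, 0.30 with library totals and 0.32 with haemoglobin removed and totals, but lower on the log2(FPKM + 1) scale, where their median was -0.23 and that of all genes -0.15. On the log2(FPKM + 0.1) scale these were -0.23 and -0.39, so there the members again stood higher. Counted directly, the 10 genes took 0.812% ± 0.281 (SD, n = 4) of all counts outside haemoglobin in the PM2.5 group and 0.815% ± 0.267 (n = 4) in the PBS group. In such bulk samples, a change in the number of platelets and a change in RNA per platelet cannot be told apart.

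The 2 chemokine genes lie side by side on chromosome 5 in GRCm38, both on the plus strand and 2371 bases apart: Ppbp at 90768518 to 90770063 and Pf4 at 90772435 to 90773383. To show what these genes and other members that moved together share upstream, the 250 bases before the RefSeq transcript start (GRCm38.p6) were searched on both strands for strings that megakaryocyte factors are known to bind. These were AGATAA or the variant TGATAA for GATA factors, AGGAAG or the variant CCGGAA for ETS factors, TGTGGT for RUNX factors, and TGAGTCA for NF-E2 with AP-1. None of the 6 contains another. Windows were matched for 8 members, all but Thbs1 and Clu. Shown here are the windows of both chemokines, of Tubb1 and of Srgn, as members of different roles that moved together: chr5:90772185-90772434, chr5:90768268-90768517 and chr2:174450345-174450594 on the plus strand and chr10:62527446-62527695 on the minus strand. The RefSeq start of Tubb1 used here lies upstream of the GENCODE gene start. Each is printed 5′ to 3′ on the gene's strand, in lower case with matches in capitals.
Pf4: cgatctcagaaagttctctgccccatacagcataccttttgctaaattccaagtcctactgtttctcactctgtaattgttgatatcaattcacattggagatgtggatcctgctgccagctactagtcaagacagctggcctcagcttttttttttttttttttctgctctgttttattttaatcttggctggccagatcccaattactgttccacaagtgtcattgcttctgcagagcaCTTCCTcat
Ppbp: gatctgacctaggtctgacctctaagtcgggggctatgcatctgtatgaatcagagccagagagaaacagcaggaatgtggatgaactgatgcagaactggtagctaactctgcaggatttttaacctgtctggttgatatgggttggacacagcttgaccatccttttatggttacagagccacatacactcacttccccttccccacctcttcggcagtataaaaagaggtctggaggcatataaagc
Tubb1: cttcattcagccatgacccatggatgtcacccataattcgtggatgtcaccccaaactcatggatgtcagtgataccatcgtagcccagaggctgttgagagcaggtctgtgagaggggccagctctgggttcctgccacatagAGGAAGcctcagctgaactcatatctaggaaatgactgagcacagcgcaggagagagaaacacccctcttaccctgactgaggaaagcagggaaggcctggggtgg
Srgn: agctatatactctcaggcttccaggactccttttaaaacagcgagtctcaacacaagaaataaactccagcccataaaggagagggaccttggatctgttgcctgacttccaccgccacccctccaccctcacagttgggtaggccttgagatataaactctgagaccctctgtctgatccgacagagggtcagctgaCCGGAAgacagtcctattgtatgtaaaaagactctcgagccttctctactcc

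Matches in these windows were few. AGGAAG was present in 2 of 8 members, Pf4 (where it reads as its reverse complement) and Tubb1, against 29.5% of all 32851 windows. CCGGAA was present in 1, Srgn, against 12% of all windows, and TGATAA in 1, Mmrn1, against 7.9%. The AGATAA form was in none of the 8 (10% of all windows), and neither was the RUNX string TGTGGT (14%) or the NF-E2 string TGAGTCA (4.5%), counting the first-listed start of each gene. A second RefSeq window of Srgn, chr10:62507758-62508007, was not counted and did hold TGTGGT, as its reverse complement. The bases after that start occur in 3 GENCODE transcripts of Srgn, against 1 for the first-listed start. The percentages count all windows, of 27025 gene symbols. Ppbp held none of the 6 strings. A match describes letters only, and the lack of one says nothing about a factor.

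**Figure D1:**
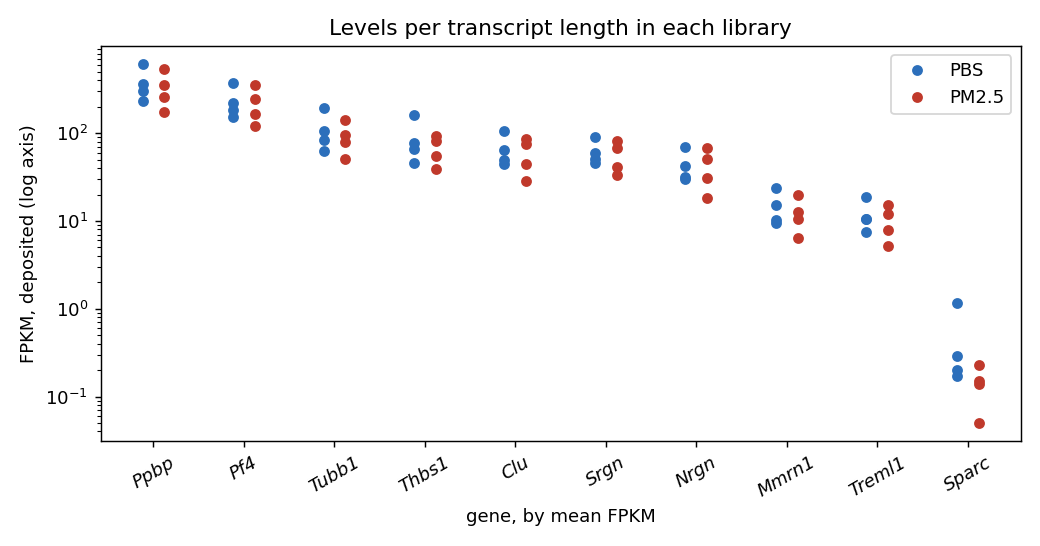
Deposited FPKM of each gene in each library on a log axis, genes in order of their mean. Blue points are the 4 PBS libraries and red points the 4 PM2.5 libraries; the genes span from 354 FPKM for Ppbp to 0.298 for Sparc, and the groups overlap in every gene.

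Per transcript length, the members ranged from some of the highest transcripts in the blood to one near zero. On the deposited FPKM scale, fragments are divided by library size and by a length derived from the transcript. That length was apparently an effective one, shorter than the full transcript. Pf4, of 588 bases, thus stood further above Tubb1, of 1406 bases, than counts over full length would place it. Levels and ranks of short transcripts hold for this scale only. Ppbp was at 354 ± 151 (SD, n = 8) and ranked 56 of 35944 genes by mean. Pf4 followed at 228 ± 94.3 (rank 83), then Tubb1 at 101 ± 45.8 (rank 144) and Thbs1 at 77.5 ± 38.6 (rank 175). Clu was at 62.4 ± 25.7 and Srgn at 59.0 (PM2.5 56.2 ± 22.9, PBS 61.8 ± 19.7, SD, n = 4), neighbours that were not separated: Clu was above Srgn in 5 of 8 libraries. Nrgn stood at 42.4 ± 18.5, Mmrn1 at 13.5 ± 5.80 and Treml1 at 11.0 ± 4.44, with Mmrn1 above Treml1 in 7 of 8. Every other pair of neighbours kept its order in 8 of 8 libraries, though the ratio of Thbs1 to Clu came as low as 1.03. Sparc, the matrix-binding protein osteonectin, was at 0.298 ± 0.352 FPKM and ranked 7394.5 (a tie), and Treml1, next above it, exceeded it 16.5-fold to 109-fold within single libraries.

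**Figure D2:**
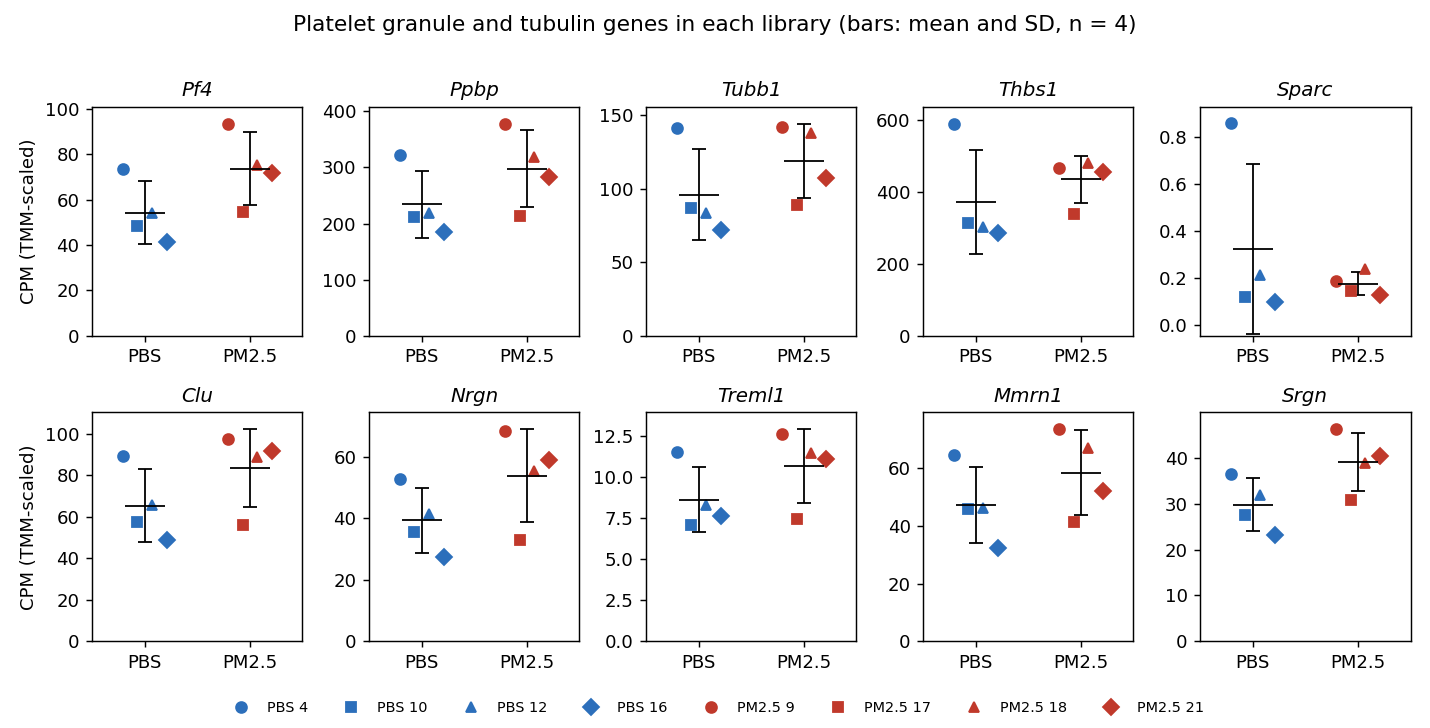
CPM (TMM-scaled) of the 10 genes in each library, 1 panel per gene, with the mean and SD of 4 libraries per group. In 9 panels PM2.5 replicate 17 is the lowest PM2.5 library, and in all 10 PBS replicate 4 is the highest PBS library; in the Sparc panel PBS replicate 4 stands alone at 0.86.

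The chemokines were the highest members per transcript length. Pf4 encodes platelet factor 4 (CXCL4), which binds heparin and other glycosaminoglycans. It was at 93.4, 54.5, 75.1 and 71.5 CPM in PM2.5 replicates 9, 17, 18 and 21 and at 73.6, 48.2, 53.9 and 41.5 CPM in PBS replicates 4, 10, 12 and 16. Only PM2.5 replicates 9 and 18 stood above the highest PBS library, and replicate 17 lay among the PBS libraries. The means were 73.7 ± 15.9 and 54.3 ± 13.8 CPM, a log2 fold change of 0.44 (SE 0.225, 95% interval -0.03 to 0.91, edgeR adjusted p = 0.307). Ppbp encodes the precursor of a neutrophil-attracting chemokine (CXCL7). It was at 378, 213, 318 and 282 CPM in the PM2.5 libraries and 321, 212, 219 and 186 CPM in the PBS libraries, in the same order of replicates. Its order of libraries was nearly that of Pf4, with PM2.5 replicate 9 the highest and PBS replicate 16 the lowest of all 8. The log2 fold change of Ppbp was 0.35 (SE 0.247, interval -0.17 to 0.86, edgeR adjusted p = 0.462).

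Among adhesive and matrix-binding cargo, Thbs1 and Mmrn1 were abundant. Thbs1 (chromosome 2, 118111876 to 118127133) encodes thrombospondin 1, which bridges platelets and matrix; an annotated lincRNA overlaps it on the opposite strand, and whether counting used strand is not known. It was at 466, 339, 480 and 456 CPM in PM2.5 replicates 9, 17, 18 and 21 and at 590, 314, 303 and 284 CPM in PBS replicates 4, 10, 12 and 16. PBS replicate 4 was thus the highest of all 8, above every PM2.5 library, while the other 3 PBS libraries were below them all. Its log2 fold change was 0.22 (SE 0.265, interval -0.34 to 0.78, edgeR adjusted p = 0.68) and 0.49 without PBS replicate 4, still not past the test. Summed over the 14 monocyte and macrophage markers, cells that also make thrombospondin, the libraries held 87.4 to 140 CPM with PM2.5 and 71.3 to 113 with PBS; F13a1 and Fn1, the most abundant of them at means of 28.0 and 19.4 CPM, are also platelet granule cargo. Of the 14, 3 were higher in the test (0.463% of all genes were), and 1 was called without PBS replicate 10, beside 31 of 10529 genes. The part of monocytes and macrophages in the Thbs1 values was not tested. Mmrn1 (chromosome 6, 60924976 to 60989378) encodes multimerin 1, the carrier of factor V in granules. It was at 73.4, 41.1, 67.1 and 52.1 CPM with PM2.5 and 64.4, 45.7, 46.3 and 32.4 CPM with PBS. The groups overlapped over most of their range, and its log2 fold change was 0.31 (SE 0.236, interval -0.19 to 0.81, edgeR adjusted p = 0.495). Endothelial markers, from cells that also make multimerin, summed to 1.43 to 2.68 CPM with PM2.5 and 1.77 to 3.20 with PBS, and none of the 5 tested was called; their part in the Mmrn1 values was not tested.

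Clu, Srgn and Nrgn shared the same high and low libraries. Clu (chromosome 14, 65968483 to 65981547), the secreted chaperone clusterin, was at 97.6, 56.0, 88.7 and 91.8 CPM with PM2.5 and 89.5, 57.5, 65.9 and 49.0 CPM with PBS. PM2.5 replicate 17 lay below 3 of the 4 PBS libraries (log2 fold change 0.35, SE 0.233, interval -0.14 to 0.84, edgeR adjusted p = 0.429). Srgn (chromosome 10, 62493833 to 62527451) encodes serglycin, the proteoglycan core that packs cargo into granules of platelets and of most white cells. It was at 46.2, 30.8, 39.0 and 40.4 CPM with PM2.5 and 36.6, 27.5, 32.0 and 23.1 CPM with PBS, so that 3 PM2.5 libraries exceeded every PBS library. The log2 fold change of Srgn was 0.39 (SE 0.2, interval -0.03 to 0.81, edgeR adjusted p = 0.305), the smallest adjusted p of the 10. Neutrophil markers, from cells that also make serglycin, summed to 32.9 to 63.1 CPM with PM2.5 and 19.0 to 39.8 with PBS, with 5 of 11 tested higher in the test, where 0.463% of all genes were. That count was 1 when any one of PBS 4, PBS 10, PBS 12, PM2.5 9 or PM2.5 17 was left out, and 8 without PBS replicate 16. Over all genes, the calls in these fits were, in the same order, 87 of 10478, 31 of 10529, 165 of 10680, 159 of 10604, 55 of 10683 and 192 of 10525. The part of neutrophils in the Srgn values was not tested. Nrgn (chromosome 9, 37544492 to 37552904) encodes neurogranin, a calmodulin-binding protein of neurons that platelets also carry as RNA. It was at 68.4, 32.9, 55.5 and 59.1 CPM with PM2.5 and 52.9, 35.7, 41.3 and 27.6 CPM with PBS. Again 3 PM2.5 libraries exceeded every PBS library and replicate 17 did not (log2 fold change 0.46, SE 0.243, interval -0.06 to 0.97, edgeR adjusted p = 0.329).

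Because Nrgn, Clu and Sparc are also brain transcripts, brain markers were set beside them. Summed over 21 brain markers, the libraries held 24.2 to 37.9 CPM with PM2.5 and 19.7 to 27.5 with PBS, and of the 8 that passed the filter on low counts all 8 were positive with TMM (3 of 8 with library totals) and none was called. The filter removed neuronal genes such as Camk2a, Snap25 and Syt1: with no filter 9 of 20 brain markers were called (624 of 18035 genes). Without PM2.5 replicates 9 and 21 it was 7 of 15 (189 of 11018 genes). Without PM2.5 replicate 9 it was 2 of 9 (159 of 10604 genes), and with DESeq2 1 of 8 (371 of 10361 genes). The most abundant were Mbp at 8.35 CPM and Cst3 at 6.59, as means over 8 libraries. Camk2a, a neuronal kinase named after its values were seen, was at 1.43 and 1.80 CPM in PM2.5 replicates 17 and 18, at 0 in replicates 9 and 21 and at 0 to 0.0373 in the PBS libraries. Mog was at 0 in every library. In the 2 PM2.5 libraries with Camk2a counts Nrgn was at 32.9 and 55.5 CPM, and in the other 2 PM2.5 libraries at 68.4 and 59.1. The log2 fold change of Nrgn was 0.70 (edgeR adjusted p = 0.35) when the pair with Camk2a counts was left out, and 0.15 (adjusted p = 0.821) when the other pair was. This shift was not particular to Nrgn. In the same order, the median over the 10 members was 0.49 and 0.15, and Pf4 was at 0.615 and 0.235. Only Sparc moved the other way, from -1.03 to -0.775. PM2.5 replicates 17 and 18 also differed in other ways. They held the highest summed erythroid markers of the 8 libraries (31030 and 31040 CPM) and the lowest TMM scaling factors (0.644 and 0.638). The part of brain transcripts in the Nrgn, Clu and Sparc values was not tested.

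The granule membrane and the tubulin completed the set. Treml1 (chromosome 17, 48359916 to 48367176) encodes TLT-1, a receptor that reaches the surface when alpha granules fuse. It was at 12.6, 7.42, 11.5 and 11.1 CPM with PM2.5 and 11.5, 7.09, 8.28 and 7.63 CPM with PBS. PM2.5 replicate 17 lay among the 3 lower PBS libraries, and PBS replicate 4 among the other PM2.5 libraries. Its log2 fold change was 0.31 (SE 0.198, interval -0.11 to 0.72, edgeR adjusted p = 0.418). Tubb1 (chromosome 2, 174450695 to 174457882) was at 142, 88.9, 138 and 107 CPM with PM2.5 and 141, 86.5, 83.5 and 72.0 CPM with PBS. PBS replicate 4 was level with the highest PM2.5 library, and the log2 fold change was 0.31 (SE 0.242, interval -0.2 to 0.82, edgeR adjusted p = 0.502).

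Sparc (chromosome 11, 55394500 to 55423183) was barely detected, unlike the other members. It had 15, 8, 13 and 11 counts in PM2.5 replicates 9, 17, 18 and 21 and 13, 16 and 11 in PBS replicates 10, 12 and 16, against 94 in PBS replicate 4. In CPM these were 0.131 to 0.241 with PM2.5, 0.0999 to 0.216 in 3 PBS libraries and 0.86 in the fourth. The log2 fold change of -0.90 (SE 0.578, interval -2.12 to 0.32, edgeR adjusted p = 0.414) turned to 0.25 (adjusted p = 0.821) without PBS replicate 4. That library also held the most transcripts of fibroblasts and other stroma: summed over 10 stroma markers, 3.45 CPM, against 0.672 to 0.999 in the other PBS libraries and 0.074 to 1.03 with PM2.5. Col3a1 was at 1.16 CPM there and at most 0.0999 elsewhere, Col1a2 at 0.622 and at most 0.135 elsewhere, and Lum was at 0 in every library. Col1a1 was at 1.04 CPM in PBS replicate 4, but also at 0.772 in PM2.5 replicate 21, where Sparc was at 0.131. Only Col1a1 of the 10 stroma markers passed the filter, and it was not called (log2 fold change -1.63, adjusted p = 0.227). It was called at -4.70 without PM2.5 replicate 21, beside 85 of 10632 genes. With library totals Col1a1 was called at -2.15, beside 483 of 10361 genes, 475 of them lower. With no filter 3 of 9 stroma markers were called, beside 624 of 18035 genes. Without PM2.5 replicates 9 and 21 it was 1 of 2, beside 189 of 11018 genes. The part of stroma in the Sparc value was not tested.

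**Figure D3:**
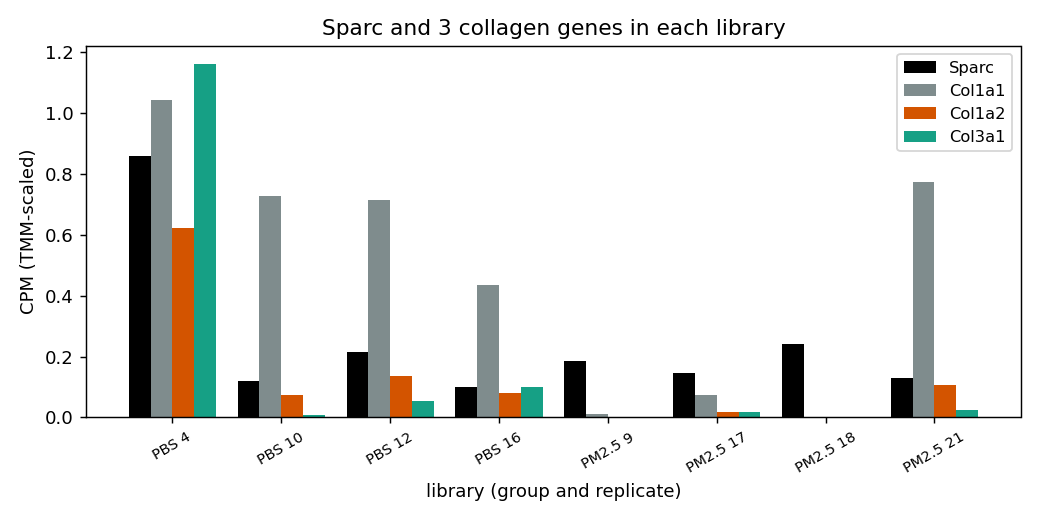
CPM (TMM-scaled) of Sparc and of the collagen genes Col1a1, Col1a2 and Col3a1 in each library. PBS replicate 4 holds the highest bar of each of the 4 genes, and in the other 7 libraries Sparc stays between 0.0999 and 0.241.

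**Figure D4:**
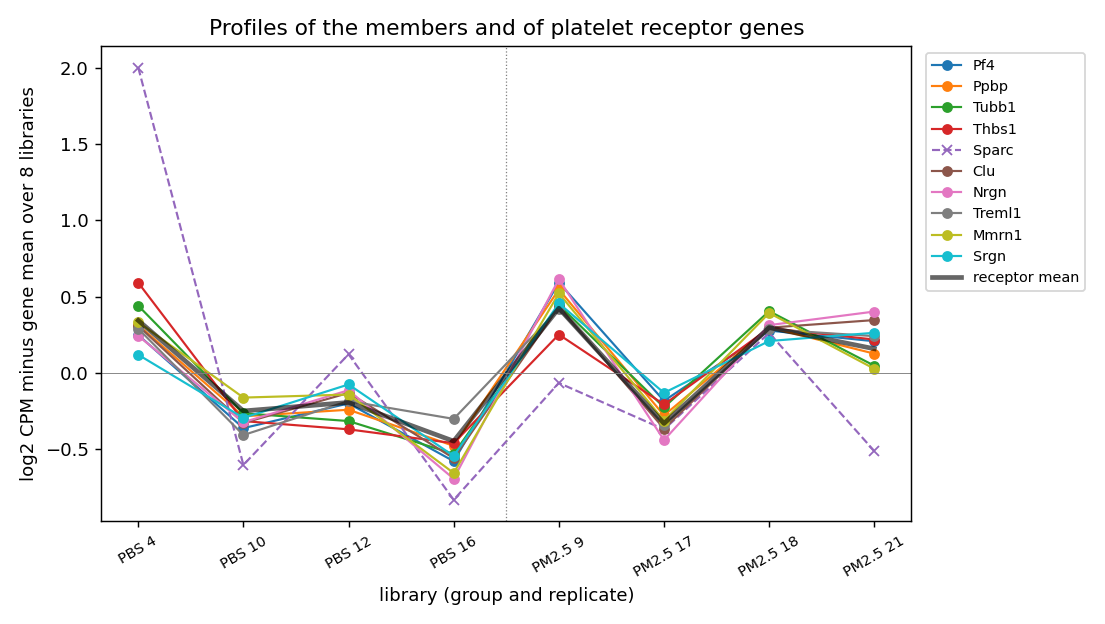
Log2 CPM of each gene minus its own mean over the 8 libraries, with the mean of the platelet receptor genes as the thick black line. The lines of 9 members follow each other and the receptor line through high libraries (PBS 4, PM2.5 9, 18 and 21) and low ones (PBS 10, 12 and 16, PM2.5 17); the dashed Sparc line departs from them.

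For the members other than Sparc, the highest and lowest library of a group differed by more than the groups did on average. PBS replicate 4 was the highest PBS library for 10 of 10 members, PBS replicate 16 the lowest for 9 of 10 and PM2.5 replicate 17 the lowest PM2.5 library for 9 of 10. In the PM2.5 group the highest library was 1.42 times (Thbs1) to 2.08 times (Nrgn) the lowest. Among PBS libraries the same ratio was 1.59 (Srgn) to 2.07 (Thbs1), and 8.6 for Sparc. For comparison, the fitted fold between groups was 1.36 for Pf4 and 1.27 for Ppbp. Red cell transcripts did not follow the same order: the summed erythroid markers were 18220 to 31040 CPM with PM2.5 and 14440 to 23740 with PBS, and PM2.5 replicate 17 was among their highest libraries, at 31030. With the mean of those markers as a covariate the median log2 fold change of the members was 0.57 and 8 of 10 had an unadjusted p under 0.05, beside 1027 of all 10361 genes. After adjustment none of the members passed, and neither did any other gene.

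Most members kept nearly fixed ratios to Pf4, a measure in which library scaling cancels apart from the prior count. The standard deviation over 8 libraries of the log2 ratio to Pf4 was 0.08 for Ppbp, which ranked 4 of 10360 genes by closeness, 0.10 for Srgn (rank 7), 0.11 for Clu (17), 0.13 for Mmrn1 (40), 0.14 for Nrgn (48), 0.14 for Tubb1 (50) and 0.14 for Treml1 (62). The median gene had 0.53. Thbs1 was looser at 0.20 (rank 265), with its highest ratio to Pf4 in PBS replicate 4 (3.003 on the log2 scale of CPM) and its lowest in PM2.5 replicate 9 (2.32). Sparc, at 0.78, ranked 9196. Genes outside the list with the smallest values were Tmsb4x, the actin-monomer-binding thymosin beta 4, at 0.04, Pttg1ip at 0.06, Dap at 0.07, the aldehyde dehydrogenase Aldh2 at 0.08, the respiratory chain subunit Cox5a at 0.09, and Zfand3, Arhgap10 and Esd at 0.10 each. Of 26 platelet receptor genes ranked, 6 were among the nearest 100.

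Set against the platelet receptors, the group means of the members other than Sparc differed by 0.005 to 0.174 on the log2 scale, described here without a test. The log2 ratio of Ppbp to the mean of the receptor genes was 4.48 ± 0.068 (SD, n = 4) in PM2.5 libraries and 4.41 ± 0.008 (n = 4) in PBS libraries. For Tubb1 it was 3.16 ± 0.103 and 3.10 ± 0.096, for Thbs1 5.05 ± 0.128 and 5.04 ± 0.18, and for Treml1 -0.32 ± 0.046 and -0.34 ± 0.128. The largest differences between groups among the 9 co-moving members were 0.17 for Pf4 (2.47 ± 0.087 against 2.30 ± 0.055) and 0.17 for Nrgn (2.00 ± 0.161 against 1.83 ± 0.134). The Pf4 ratio was 2.37 to 2.55 in the PM2.5 libraries and 2.26 to 2.38 in the PBS libraries, so the groups still overlapped. With the receptor mean as a covariate in edgeR, log2 fold changes of the 9 lay between -0.01 (Thbs1) and 0.20 (Srgn) with none past the test, and Sparc was at -1.31 (adjusted p = 0.157).

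**Figure D5:**
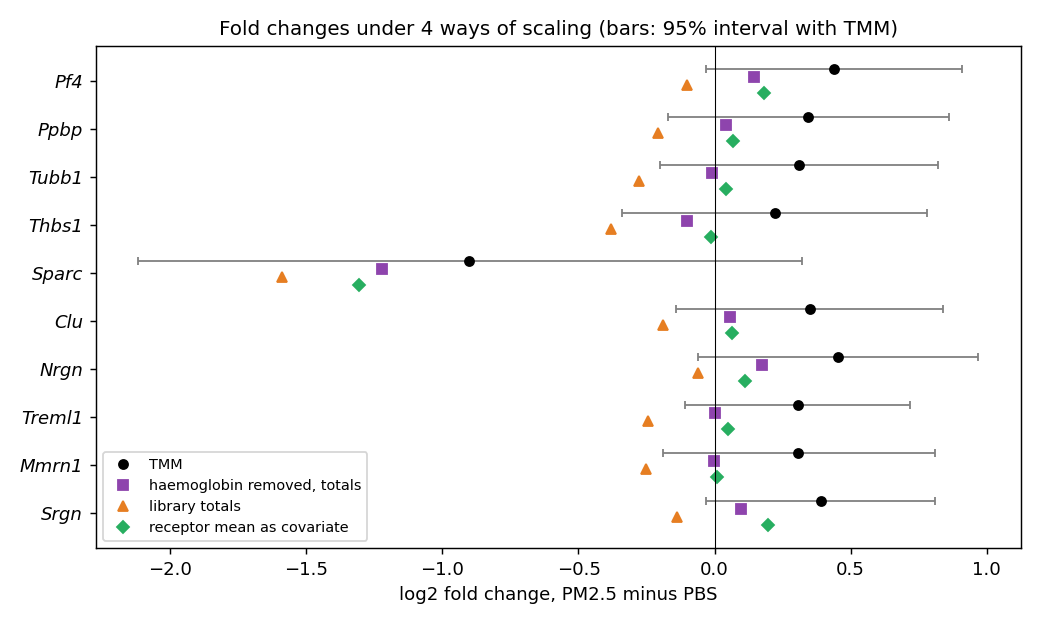
Fitted log2 fold change of each gene, PM2.5 minus PBS, with TMM (black, bars are 95% intervals), with haemoglobin removed and scaling to totals (squares), with library totals (triangles) and with the platelet receptor mean as covariate (diamonds). All 10 black bars cross 0, all 10 triangles lie below 0, and 9 of the diamonds lie within 0.20 of 0.

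The table lists transcripts, and the counts of most members fell on 1 model each. Ppbp and Tubb1 each had 1 transcript. The leading transcript held 99.8% of the counts of Pf4, 99.9% of Nrgn and 94.5% of Treml1, and for Clu 82.3% ± 2.19 (SD, n = 4) in PM2.5 libraries and 82.3% ± 1.41 (n = 4) in PBS libraries. Srgn-201 held 89.3% ± 5.05 and 88.2% ± 6.48. Mmrn1 divided its counts between Mmrn1-201 (67.6% ± 9.48 with PM2.5, 65.8% ± 7.26 with PBS) and a model of nearly equal length (4477 and 4472 bases). The Sparc transcript with the most counts varied from 0% to 67.9% of the gene's counts between libraries, at the few counts given above. A minor model of Treml1, Treml1-205, named after its values were seen, took 0.71% ± 0.615 of the gene's counts with PM2.5 and 2.23% ± 0.137 with PBS, on 0 to 13 and 13.8 to 26.5 expected counts per library.

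Other genes of the platelet and granule pathway were mostly positive with TMM and gave no calls. None of these lists had a member past the test, and with library totals the median of each was below 0 (-0.26 to -0.47), in each case above the median of all genes. On the log2(FPKM + 1) scale the medians of receptors (-0.21), cytoskeletal genes (-0.30) and release genes (-0.16) lay below that of all genes (-0.15). Those of further granule cargo (-0.14), granule-building genes (-0.14) and megakaryocyte factors (-0.12) lay above it. On the log2(FPKM + 0.1) scale each median again lay above that of all genes (-0.39). With library totals 1 gene listed as further granule cargo and 1 megakaryocyte factor were called, beside 483 of 10361 genes. With no filter 3 of 39 genes listed as further granule cargo and 1 of 22 release genes were called, beside 624 of 18035 genes. Of 40 genes listed as further granule cargo, 23 were tested and 20 were positive (median 0.24). The list was not purely granule proteins: its most abundant gene, Plek, encodes the cytosolic kinase substrate pleckstrin (log2 fold change 0.26). Next in level was Vwf, von Willebrand factor, at 138 ± 27.3 CPM with PM2.5 and 117 ± 41.1 with PBS. Of 26 receptors tested, 25 were positive (median 0.27), led in level by Cd9, a tetraspanin (206 ± 58.8 and 141 ± 25.9 CPM), and Itgb3, the beta chain of the fibrinogen receptor (184 ± 29.7 and 159 ± 58.6). Genes that build granules were divided, 15 positive and 10 negative of 25 (median 0.10), with Lamp2 and Lyst, the Chediak-Higashi regulator, at log2 fold changes of 0.36 and -0.13. Of 20 release genes, 13 were positive (median 0.19), among them the membrane fusion proteins Stx11 (0.41) and Snap23 (0.49). Of 21 cytoskeletal genes, 21 were positive (median 0.21), with Flna at 0.24 and Myh9 at 0.18. Of 15 megakaryocyte transcription factors, 11 were positive (median 0.21); Nfe2, which drives Tubb1 in megakaryocytes, was at 15.5 ± 1.17 CPM with PM2.5 and 10.6 ± 1.03 with PBS (log2 fold change 0.55, edgeR adjusted p = 0.0965), and Mef2c at -0.44 (adjusted p = 0.168). DESeq2 called 2 of the 15, and 371 of all 10361 genes. The groups did not overlap for 1 of the 15 that was higher (Nfe2) and 2 that were lower (Mef2c among them). Over all genes these shares were 3.02% and 6.64%. Ratios to Pf4 were loose for both, with standard deviations of 0.285 for Nfe2 (rank 691) and 0.518 for Mef2c (rank 4766), where the median gene had 0.53. The part of other cells in these values was not tested.

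Among tubulins, Tubb1 was the highest per length, at 101 FPKM over all libraries against 22.3 for Tuba4a, 14.6 for Tubb2a and 14.3 for Tuba1c. Of 14 tubulin genes tested, Tubb1 included, 11 were positive with TMM (median 0.31) and 3 with library totals (median -0.28), and none passed. Tubb2b came nearest, at 1.84 ± 0.263 CPM with PM2.5 and 1.10 ± 0.367 with PBS (log2 fold change 0.74, edgeR adjusted p = 0.0953); it shares much of its sequence with Tubb2a, so its counts are uncertain. Tubb4b was at 13.2 ± 0.855 and 10.7 ± 1.04 CPM without overlap of the groups (log2 fold change 0.30, adjusted p = 0.324). Tubb5 (-0.02) and Tuba1b (-0.28), tubulins of most dividing cells, were negative, without passing. In other settings calls did occur. Without PBS replicate 4, 1 of 14 tubulins was called, beside 87 of 10478 genes. With no filter it was 1 of 18, beside 624 of 18035 genes. Tubb2b and Tubb4b held looser ratios to Pf4 than Tubb1 did, with standard deviations of 0.26 (rank 558) and 0.32 (rank 963).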

How the data were processed

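Total RNA of 8 buffy coat samples was reverse transcribed with random primers and the second strand was removed, per the labels' protocols. Tools named in the submitters' processing notes are HISAT2 2.0.1, cutadapt 1.9.1 and bcl2fastq 2.17.1.14, with GRCm38 as build; which tool counted, and with what strand setting, is not given in the sources used. The deposited table holds, per the file headers, expected counts and FPKM values for 118783 Ensembl transcripts. The counts are estimated, not normalized, and 24.5% are not whole within 1e-09. The authors scaled the FPKM values by library fragments and by a transcript length, apparently the effective length described above.

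Here 116710 transcripts matched GENCODE M21 and were summed to 35944 genes; the rest held at most 0.0532% of a library. Expected counts were rounded and tested with edgeR 4.0.16 (R 4.3.3; two-sided quasi-likelihood test, TMM, filterByExpr at count 10 and total 15, 10361 genes, Benjamini-Hochberg threshold 0.05, group as the only term). The SE is the size of the log2 fold change over the square root of F, an approximation on which the 95% intervals rest. Log2 ratios used a prior count of 2. All pairs of libraries differed by more than sampling noise. The procedure was tested on simulated data. Promoter windows are RefSeq's.

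The members and the gene lists were chosen with earlier results of these data known. Genes that could be named were all 10 members; of each other list up to 4 genes past the test, otherwise the 2 most abundant; tubulins of at least 1 CPM; the 3 most abundant brain, endothelial and stroma markers; and the 8 non-members with the steadiest ratio to Pf4, without predicted genes, RIKEN clones and pseudogenes. Camk2a, Snap25, Syt1, Mog, Lum and Treml1-205 were named after their values were seen. Blood cell and endothelial marker lists are given as sums and counts, mostly without naming their genes, and one brain marker is not reported here. Alternatives covered scaling, filters, DESeq2 1.42.0, limma 3.58.1 on log2(FPKM + 1) or log2(FPKM + 0.1), covariates and libraries left out.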

Additional observations from a re-analysis of the deposited data

Results flagged for a closer look

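Thbs1 stood at 590 CPM in PBS replicate 4, where the next PBS library was at 314 and the lowest at 284, so a single library lay far from the other 3 of its group. Sparc was at 0.86 CPM in the same library, against 0.216 and 0.0999 for the next and the lowest. Over 20 groups of 4 libraries examined, chance alone flags about 1 in 20. Beside these values, PBS replicate 4 had the lowest haemoglobin share, 82.31%, and the highest summed stroma markers, 3.45 CPM. Their part in either value was not tested.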

How the results depend on the processing

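None of the 10 members passed the edgeR test, DESeq2 or limma in any of the 22 settings run for each (21 for Sparc, absent at a mean of at least 1 CPM); smallest adjusted p over all of these, 0.0764 for Sparc. Directions turned with the scaling. With library totals the members' median was -0.23 and the values were Pf4 -0.10, Ppbp -0.21, Tubb1 -0.28, Thbs1 -0.38, Clu -0.19, Nrgn -0.061, Treml1 -0.24, Mmrn1 -0.25, Srgn -0.14. With haemoglobin removed and totals, Tubb1 -0.011, Thbs1 -0.10, Mmrn1 -0.00047. With limma on log2(FPKM + 1), the median was -0.23, with Pf4 -0.11, Ppbp -0.22, Tubb1 -0.23, Thbs1 -0.29, Clu -0.21, Nrgn -0.12, Treml1 -0.24, Mmrn1 -0.24, Srgn -0.18. On log2(FPKM + 0.1), the median was -0.23, with Pf4 -0.11, Ppbp -0.22, Tubb1 -0.24, Thbs1 -0.30, Clu -0.21, Nrgn -0.13, Treml1 -0.27, Mmrn1 -0.26, Srgn -0.18. Thbs1 was at -0.014 with the receptor covariate. Leaving out single libraries, Sparc ran from -1.21 (without PBS replicate 16) to 0.25 (without PBS replicate 4), and over all settings it was lowest at -1.59, with library totals. Leaving out single libraries, the members' median ran from 0.19 (without PM2.5 replicate 9) to 0.49 (without PBS replicate 4). It was 0.49 without PM2.5 replicates 17 and 18 and 0.15 without replicates 9 and 21. Over all genes, 166 were called; 483 with library totals, 624 with no filter, 371 with DESeq2, 0 with either limma fit (2100 and 2126 at an unadjusted p under 0.05), 0 with the erythroid covariate (1027 unadjusted), 31 to 192 without single libraries (lowest without PBS replicate 10) and 8 without PM2.5 replicates 17 and 18. The cause of these shifts was not tested. No paired analysis was possible because the labels give the groups different replicate numbers. Depth limits Sparc, at 8 to 16 counts in 7 libraries.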
